A study of Mus musculus with 9 samples.

Results

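The genes of the T cell receptor complex and of T cell subsets were followed in lung RNA from 9 mice. They are 10 rows of the gene count table, out of 21930 protein-coding genes, picked by symbol: Cd3d, Cd3e, Cd3g, Cd4, Cd8a, Cd8b1, Skap1, Ccr7, Lck and Foxp3. Each symbol matched 1 row, and all 10 genes passed the filter on low counts that left 15636 genes for testing. The animals fall into 3 groups of 3, and the labels give every mouse as a male of the C57BL/6 strain aged 6 to 8 weeks. All were anaesthetised with tribromoethanol before instillation, and the series calls the 3 of a group biological replicates. Control mice received sterile saline in the trachea. LPS mice received 2 mg/kg lipopolysaccharide, a glycolipid from the envelope of Gram-negative bacteria, by the same route, and were then gavaged with vehicle. LPS plus RSBD mice received the same LPS and were gavaged with a decoction of Renshen Baidu Powder, a traditional Chinese herbal formula. Gavage is described as starting 24 hours after instillation and lasting 5 days, while lungs were taken on day 5, so the number of doses is unclear, and whether the saline mice were gavaged with vehicle is not stated separately. Libraries of the third group are called RSBD 1 to 3.

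T cells recognise peptides on other cells through a T cell receptor that cannot signal by itself. It depends on the CD3 chains, whose cytoplasmic tails are phosphorylated by the kinase LCK, and LCK is brought to the receptor by the coreceptors CD4, on helper and regulatory T cells, and CD8, on cytotoxic T cells. SKAP1 is an adaptor that couples receptor signals to integrin adhesion, CCR7 is the chemokine receptor that takes naive and central memory T cells, and also dendritic cells that have matured, to lymph nodes, and FOXP3 is the transcription factor that defines regulatory T cells. In whole lung RNA, fewer cells of a type and less RNA per cell cannot be told apart, so every level below is a level per lung library and not per T cell.

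The 3 CD3 genes lie together on chromosome 9 (mm10). Cd3g (44969572 to 44980431, minus strand) and Cd3d (44981786 to 44987339, plus strand) are transcribed away from each other from start sites 1355 bases apart, and the nearer end of Cd3e (44998740 to 45009627, minus strand) lies 11401 bases beyond the end of Cd3d. Cd8b1 (71322788 to 71337494) and Cd8a (71373427 to 71379173) are neighbours on chromosome 6, both on the plus strand, 35933 bases apart. Cd4 lies elsewhere on chromosome 6 (124864692 to 124888221), Lck on chromosome 4 (129548344 to 129573641), Skap1 (96464593 to 96759130) and Ccr7 (99144196 to 99155077) on chromosome 11, and Foxp3 on chromosome X (7573644 to 7595245). Foxp3 overlaps the antisense coding genes Ppp1r3f and Ccdc22 and the noncoding gene Flicr in GENCODE M21, Cd3e overlaps small noncoding models, and Skap1 holds the noncoding gene 2010300F17Rik on the other strand. With the strand setting of the counting not known, reads there may have been shared with them.

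The promoters are shown for the CD3 genes, whose levels moved together across the 9 libraries, and for Lck. Pearson r of log2 CPM was 0.94 to 0.96 among the CD3 genes. Lck moved with them too (0.83 to 0.89), but its LPS and control libraries overlapped where theirs did not. Sequences are from RefSeq (GRCm38.p6), run 5′ to 3′ on the strand of the gene and cover 250 bases before to 50 bases after a start site. Capitals mark matches on either strand to 5 motifs. The letters searched were GGAAGT for ETS factors. For RUNX factors they were TGTGGT. For TCF/LEF factors they were CTTTGA. For GATA factors they were AGATAA. For the E-box, bound by basic helix-loop-helix factors, they were CAGNTG. The Lck gene has 2 such windows, at the distal start site used mainly in mature T cells and at the proximal one used mainly in thymocytes.
Cd3g, chr9:44980382-44980681, minus strand: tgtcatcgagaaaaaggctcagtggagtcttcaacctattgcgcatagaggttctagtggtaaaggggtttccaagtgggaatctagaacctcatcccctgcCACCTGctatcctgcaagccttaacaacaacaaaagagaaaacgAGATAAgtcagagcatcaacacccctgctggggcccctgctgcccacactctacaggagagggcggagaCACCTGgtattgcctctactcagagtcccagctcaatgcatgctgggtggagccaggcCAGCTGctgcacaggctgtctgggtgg
Cd3d, chr9:44981536-44981835, plus strand: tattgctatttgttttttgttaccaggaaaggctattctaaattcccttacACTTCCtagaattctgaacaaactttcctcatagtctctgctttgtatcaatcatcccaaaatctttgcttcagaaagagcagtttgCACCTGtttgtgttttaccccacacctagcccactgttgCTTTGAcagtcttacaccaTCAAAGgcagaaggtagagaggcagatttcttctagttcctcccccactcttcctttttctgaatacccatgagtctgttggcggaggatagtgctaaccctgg
Cd3e, chr9:45009562-45009861, minus strand: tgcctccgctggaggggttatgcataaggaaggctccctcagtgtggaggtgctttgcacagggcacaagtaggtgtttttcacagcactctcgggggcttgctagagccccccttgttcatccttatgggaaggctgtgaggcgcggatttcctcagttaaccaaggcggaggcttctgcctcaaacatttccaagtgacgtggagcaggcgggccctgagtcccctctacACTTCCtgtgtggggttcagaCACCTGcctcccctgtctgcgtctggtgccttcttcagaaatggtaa
Lck, distal, chr4:129573592-129573891, minus strand: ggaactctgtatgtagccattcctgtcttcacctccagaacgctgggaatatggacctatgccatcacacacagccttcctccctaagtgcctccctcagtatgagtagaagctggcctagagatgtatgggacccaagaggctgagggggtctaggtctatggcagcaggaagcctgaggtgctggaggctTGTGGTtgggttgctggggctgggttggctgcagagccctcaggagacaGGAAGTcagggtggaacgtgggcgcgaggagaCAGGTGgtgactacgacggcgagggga
Lck, proximal, chr4:129558323-129558622, minus strand: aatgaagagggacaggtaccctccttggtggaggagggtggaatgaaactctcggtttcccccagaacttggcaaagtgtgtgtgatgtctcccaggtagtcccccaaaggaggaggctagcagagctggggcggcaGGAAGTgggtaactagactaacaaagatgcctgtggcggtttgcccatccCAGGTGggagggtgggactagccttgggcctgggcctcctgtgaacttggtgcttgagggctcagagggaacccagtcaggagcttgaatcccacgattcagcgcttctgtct
The E-box letters were present in all of these windows, in all 8 windows of the 6 members found in the table, and in 51.4% of the 32851 promoter windows of that table. The ETS letters were present in Cd3d, Cd3e and both Lck windows and in 23.8% of all windows. The Cd3d window held the TCF/LEF letters at 2 places (16% of all windows hold them), the Cd3g window the GATA letters (11.2%), and the distal Lck window the RUNX letters (16.8%). Cd3d and Cd3g, which share a locus and moved together, had no motif of this set in common other than the E-box. Cd4, Cd8b1, Skap1 and Ccr7 had no entry.

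Total counts ranged from 26959662 to 36113905 per library, and reads of the 10 genes made up 0.0124% to 0.0325% of them. The lung markers Sftpc (6639 to 11410 CPM) and Scgb1a1 (17710 to 37220 CPM) were abundant in every library. Levels are given in CPM, counts relative to the scaled library total, and differences as log2 fold changes ± SE. Tests are edgeR's quasi-likelihood tests, with p-values adjusted by Benjamini-Hochberg over the 15636 genes and a call at an adjusted p under 0.05. A pair of facts on the libraries touches what follows. First, the 3 control libraries had 6 to 9 reads from chromosome Y genes and the others 7511 to 10918, although all mice are labelled male, so in every comparison with control the treatment and the presence of chromosome Y transcripts cannot be told apart. Second, RSBD 2 had the highest CPM of all 9 libraries for 10 of the 10 genes, where 10.7% of all tested genes peaked in that library. On the TPM scale this held for all but Ccr7 (23.29 TPM in LPS 1 and 23.17 TPM in RSBD 2). Counts and differences that involve the LPS plus RSBD group are therefore also given without RSBD 2 where that changes a call or a direction. Transcripts of 9 mitochondrial genes summed to 21040 to 23810 CPM in control, 25270 to 31370 CPM in LPS and 25870 to 31790 CPM in LPS plus RSBD libraries, and their part in the results was not tested.

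In LPS lungs on day 5, transcripts of the CD3 chains, Cd8b1, Skap1 and Ccr7 stood above control in every library, while Cd4, Foxp3 and Lck did not separate from control. Only Skap1 and Ccr7 passed the test over all genes, and both rose, Skap1 by 1.75-fold and Ccr7 by 1.96-fold. That is 2 of 10 members called higher and 0 lower, where 8.79% of all tested genes were called higher and 8.63% lower. The groups did not overlap, with LPS higher, for 7 of 10 members, where 18.6% of all tested genes did so, and 8 of 10 had a fold change above 0, as did 49.4% of all genes. The members' median log2 fold change was 0.70 against -0.01 over all genes. After RSBD, Skap1 and Ccr7 were again called higher than control (1.89% of all genes were called higher), and 10 of 10 fold changes were above 0 (51.9% of all genes). In CPM the 3 CD3 genes, Skap1 and Ccr7 did not overlap with control (15.4%), but Cd3d did on the TPM scale. Without RSBD 2 the calls of Skap1 and Ccr7 were lost, while the share of all genes called in either direction fell from 3.7% to 0.615%. With any library left out, their log2 fold changes stayed at or above 0.712 and 0.779. Those of Cd4 and Foxp3 turned to -0.168 and -0.505 without RSBD 2. Against LPS, 0 of 10 members were called.

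**Figure D1:**
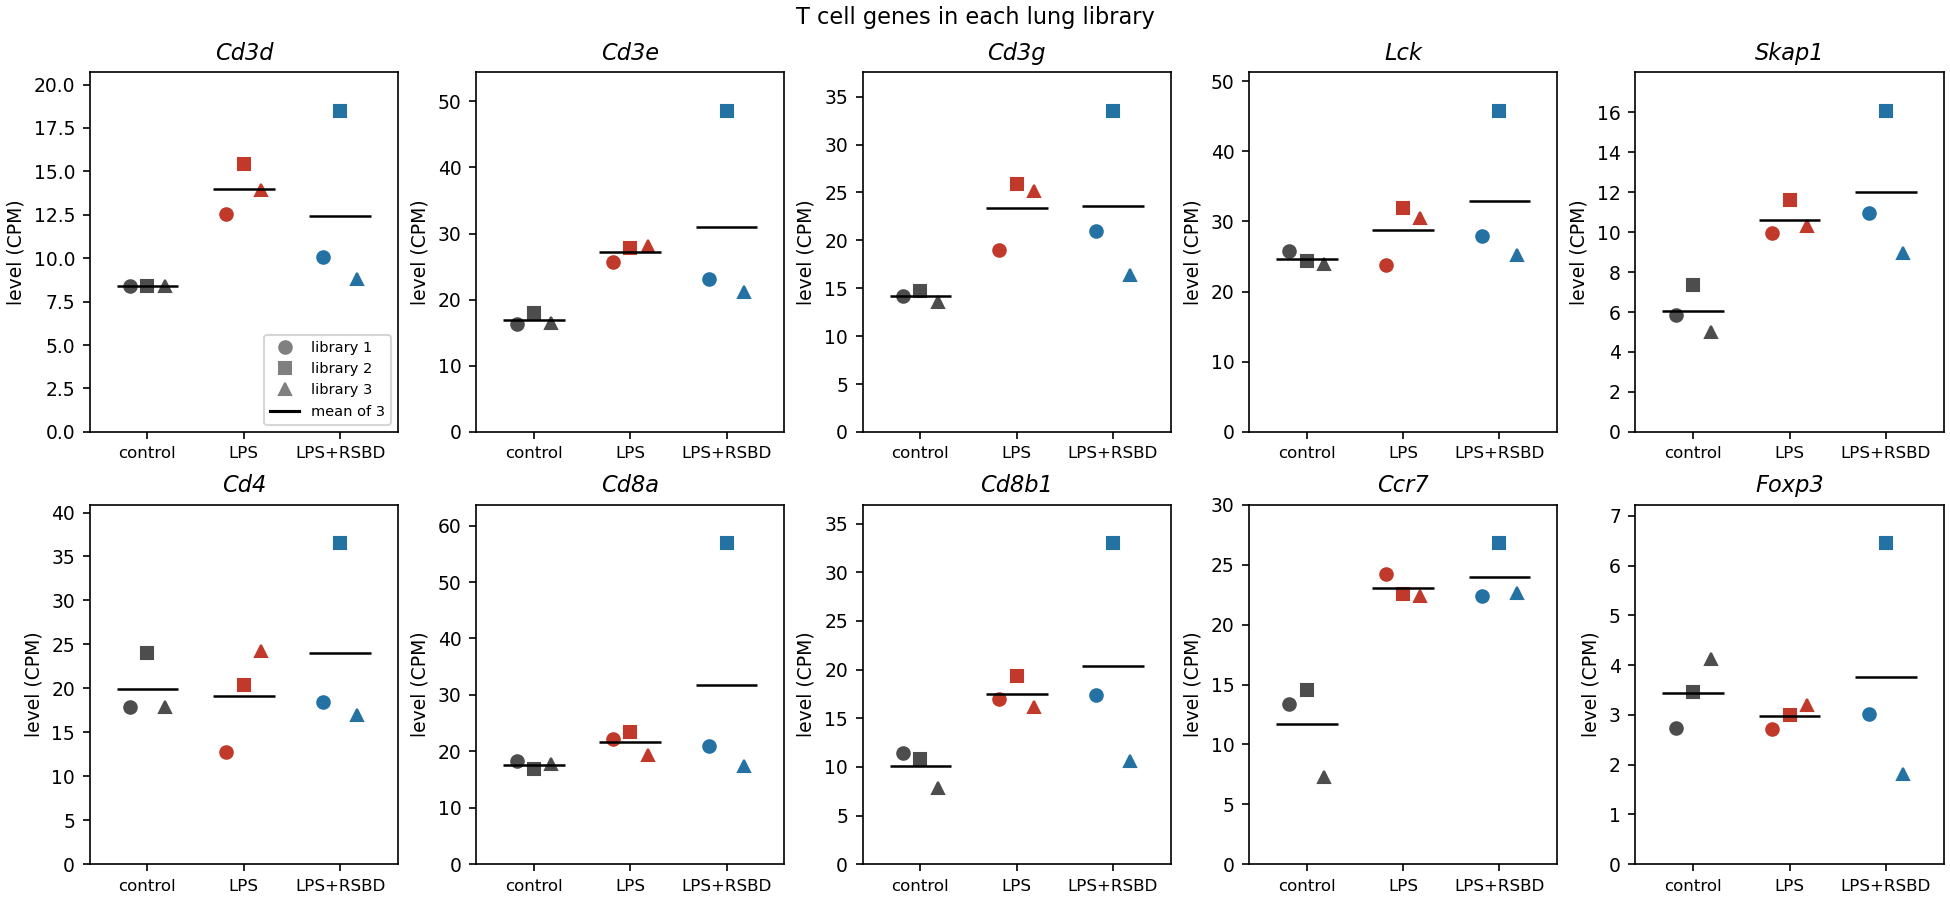
Level in CPM (vertical axes, starting at 0) of each of the 10 genes in the 9 lung libraries, by group (horizontal axes), with symbols for library number and a bar for the mean of 3. The LPS libraries lie above all control libraries for Cd3d, Cd3e, Cd3g, Cd8a, Cd8b1, Skap1 and Ccr7, and RSBD 2 (blue square) is the highest library in every panel.

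The CD3 chains carry the signal of the receptor into the cell. Cd3d measured 8.37, 8.37 and 8.4 CPM in control libraries 1 to 3, 12.5, 15.5 and 13.9 CPM in LPS libraries, and 10.1, 18.5 and 8.8 CPM in LPS plus RSBD libraries. Every LPS library was above every control library, and of the RSBD libraries the second was far above the other 2, which lay below all LPS libraries. Cd3e measured 16.3, 18.02 and 16.5 CPM in control, 25.7, 27.9 and 28.1 CPM in LPS, and 23.2, 48.6 and 21.1 CPM in LPS plus RSBD libraries. Cd3g measured 14.2, 14.7 and 13.6 CPM in control, 18.98, 25.9 and 25.2 CPM in LPS, and 21.0, 33.5 and 16.4 CPM in LPS plus RSBD libraries. In CPM all 3 genes thus had control lowest, with no overlap with either other group, and a wide range after RSBD. For Cd3d the separation after RSBD depends on the unit. On the TPM scale RSBD 3 was its lowest library (9.14 TPM), below the controls (9.33 to 10.4 TPM).

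Against control, the LPS group differed by 0.74 ± 0.25 for Cd3d, 0.68 ± 0.27 for Cd3e and 0.72 ± 0.24 for Cd3g, 1.67-fold, 1.61-fold and 1.65-fold, and none of these passed (edgeR adjusted p = 0.0647, 0.111 and 0.0602). These 3 differences are called once RSBD 2 is left out of the shared model (edgeR adjusted p = 0.0123, 0.00593 and 0.0171). They are also called when LPS and control libraries alone are fitted (adjusted p = 0.0134, 0.00709 and 0.0139), with DESeq2 (adjusted p = 0.0248, 0.0457 and 0.017), and, for Cd3d and Cd3g, without RSBD 3 (adjusted p = 0.0407 and 0.0286). Over all alternatives the adjusted p ranged from 0.0123 to 0.185 for Cd3d, 0.00593 to 0.238 for Cd3e and 0.0139 to 0.175 for Cd3g. For LPS plus RSBD against control the differences were 0.57 ± 0.25, 0.87 ± 0.27 and 0.74 ± 0.24 (edgeR adjusted p = 0.203, 0.105 and 0.104). Without RSBD 2 they were 0.17, 0.39 and 0.40, a drop by more than 1.5 times for each of the 3 genes. Cd3g is called without RSBD 3 (0.0389) and with DESeq2 (0.0303), and Cd3e with DESeq2 (0.0193).

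LCK is the kinase that starts receptor signalling, and its transcript was the most abundant of the 10 in control lungs per unit of length (24.7 ± 0.834 TPM, n = 3), followed by Cd3g (22.9 ± 1.56 TPM), with which it overlapped, and Cd3e (19.9 ± 1.69 TPM). Cd8b1, Cd4, Cd8a, Ccr7 and Cd3d came next at means of 12.3, 12.2, 12.1, 10.7 and 9.92 TPM, each overlapping its neighbours in that order, then Skap1 (7.67 ± 1.63 TPM), which overlapped Cd3d, and Foxp3 (1.66 ± 0.37 TPM), below all others. In LPS lungs Cd3g (36.9 ± 3.17 TPM) and Cd3e (30.2 ± 1.49 TPM) both stood above Lck (24.5 ± 1.503 TPM). Lck measured 25.7, 24.4 and 24.0 CPM in control, 23.9, 31.9 and 30.5 CPM in LPS, and 27.9, 45.8 and 25.2 CPM in LPS plus RSBD libraries. LPS 1 was the lowest of the 9 libraries, and the LPS and control groups overlapped. The difference between LPS and control was 0.22 ± 0.21 (95% interval -0.25 to 0.68, edgeR adjusted p = 0.487), and it was -0.01 with limma on log2(TPM + 1). Skap1 measured 5.84, 7.35 and 5.02 CPM in control, 9.96, 11.6 and 10.3 CPM in LPS, and 10.9, 16.1 and 8.94 CPM in LPS plus RSBD libraries. Every library that had received LPS was above every control library for this adaptor.

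Skap1 rose by 0.81 ± 0.23 in LPS lungs (edgeR adjusted p = 0.0393) and by 0.98 ± 0.23 in LPS plus RSBD lungs (edgeR adjusted p = 0.0465), against control. The first call is lost without any 1 of the control or LPS libraries (adjusted p = 0.0892, 0.0579 and 0.125 without controls 1 to 3, and 0.0552, 0.123 and 0.072 without LPS 1 to 3) or RSBD 1 (0.0527), and with limma on log2(TPM + 1) (0.0504), while the log2 fold change over these left-out libraries stayed between 0.69 and 0.97. The second is lost without any control library (adjusted p = 0.111, 0.0828 and 0.146), LPS 2 (0.0695), LPS 3 (0.0652), RSBD 1 (0.0782) or RSBD 2 (0.141), where the change was 0.71, and with limma (0.0585) or the compared groups alone (0.0766). Both calls therefore sit close to the threshold, while the direction was the same in all 18 alternatives of each.

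The CD4 coreceptor gene did not separate the groups. Cd4 measured 17.9, 24.0 and 17.8 CPM in control, 12.8, 20.3 and 24.3 CPM in LPS, and 18.4, 36.5 and 17.0 CPM in LPS plus RSBD libraries. The groups overlapped throughout, with the lowest library of all, LPS 1, among the LPS group. LPS and control differed by -0.06 ± 0.32 (95% interval -0.79 to 0.67, edgeR adjusted p = 0.922), and that interval takes in changes of either sign. The sign of this difference turned without control 2 (0.10) or without LPS 1 (0.17). LPS plus RSBD and control differed by 0.27 ± 0.32 (edgeR adjusted p = 0.661), and by -0.168 without RSBD 2.

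The CD8 genes encode the alpha and beta chains of the coreceptor, of which the alpha chain is also made by some dendritic cells and the beta chain mainly by CD8 T cells. Cd8b1 measured 11.5, 10.8 and 7.83 CPM in control, 16.9, 19.3 and 16.1 CPM in LPS, and 17.4, 33.0 and 10.7 CPM in LPS plus RSBD libraries. Cd8a measured 18.3, 16.8 and 17.7 CPM in control, 22.2, 23.5 and 19.3 CPM in LPS, and 21.0, 56.9 and 17.3 CPM in LPS plus RSBD libraries. For both chains the LPS libraries lay above all control libraries, and RSBD 3 lay within the control range. RSBD 2 held 2.42 times the Cd8a level of the next highest library, the largest such ratio of the 10 genes.

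LPS and control differed by 0.80 ± 0.35 for Cd8b1 (1.74-fold, edgeR adjusted p = 0.142) and by 0.30 ± 0.38 for Cd8a (1.23-fold, edgeR adjusted p = 0.613). Cd8b1 is called without RSBD 2 (adjusted p = 0.0347), without RSBD 3 (0.0483) and with LPS and control libraries alone (0.0183), over a range of 0.0183 to 0.333, and Cd8a in none of the 18 alternatives. LPS plus RSBD and control differed by 1.02 ± 0.35 for Cd8b1 and 0.85 ± 0.38 for Cd8a (edgeR adjusted p = 0.132 and 0.223). Without RSBD 2 these were 0.48 and 0.13, while Cd8b1 is called without RSBD 3 (0.0314) and with DESeq2 (0.0272). On the TPM scale the Cd8a groups overlapped (11.4 to 12.7 TPM in control and 11.1 to 15.7 TPM in LPS libraries), so its separation depends on the unit.

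CCR7 gave the largest fitted difference of the 10 genes in LPS against control. Ccr7 measured 13.3, 14.6 and 7.26 CPM in control, 24.2, 22.5 and 22.4 CPM in LPS, and 22.4, 26.8 and 22.7 CPM in LPS plus RSBD libraries. All 6 libraries from LPS-treated mice lay within 22.4 to 26.8 CPM and above every control library, and control 3 was the lowest. Ccr7 rose by 0.97 ± 0.22 in LPS (1.96-fold, edgeR adjusted p = 0.0181) and by 1.03 ± 0.22 in LPS plus RSBD lungs (2.04-fold, edgeR adjusted p = 0.0356). It was also the gene on which RSBD 2 stood out least, at 1.11 times the next highest library. The first call is lost without LPS 2 (adjusted p = 0.0587), with all other alternatives between 0.000289 and that value. The second is lost without control 1 (0.0672), control 2 (0.0569), LPS 2 (0.0575), LPS 3 (0.0543), RSBD 1 (0.0641) or RSBD 2 (0.118), where the change was 0.94, and with limma (0.0513) or the compared groups alone (0.0705), and is kept without control 3, LPS 1 or RSBD 3.

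Foxp3 was the scarcest of the 10 genes. It had 78, 109 and 116 reads in control, 73, 92 and 88 in LPS, and 110, 200 and 50 in LPS plus RSBD libraries. In CPM these were 2.74, 3.47 and 4.13 in control, 2.71, 3.0 and 3.2 in LPS, and 3.02, 6.45 and 1.82 in LPS plus RSBD libraries. The LPS libraries were close to one another and within or just below the control range, and the LPS plus RSBD group held both the highest and the lowest library of the 9. LPS and control differed by -0.21 ± 0.40 (95% interval -1.11 to 0.68), LPS plus RSBD and LPS by 0.34 ± 0.40, and LPS plus RSBD and control by 0.13 ± 0.40 (edgeR adjusted p = 0.742, 0.843 and 0.875). Without RSBD 2 the last was -0.51. At this depth a difference of the size seen for Skap1 or Ccr7 lies outside the interval for LPS against control, on the side of an increase.

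Against LPS alone, RSBD moved none of the 10 genes past the threshold, and 0% of all genes were called in that comparison (0 of 15636 by edgeR, with 1473 genes or 9.42% at an unadjusted p under 0.05 and 157 called by DESeq2, 0 of them members in either case). The members' differences ran from -0.16 ± 0.25 for Cd3d to 0.55 ± 0.38 for Cd8a, with 9 of 10 above 0, as were 52.4% of all genes. The groups overlapped for all 10, where 7.18% of all genes did not overlap with RSBD higher and 5.46% with RSBD lower. Without RSBD 2 the differences of all 10 genes were below 0, from -0.56 for Cd3d to -0.03 for Ccr7. The direction for the genes other than Cd3d therefore rests on that library. The 95% interval with all libraries was -0.42 to 0.53 for Ccr7, -0.33 to 0.68 for Skap1 and -0.30 to 1.40 for Cd8a. The comparisons of LPS with control and of LPS plus RSBD with LPS share the LPS libraries, so their values are given side by side and not correlated.

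**Figure D2:**
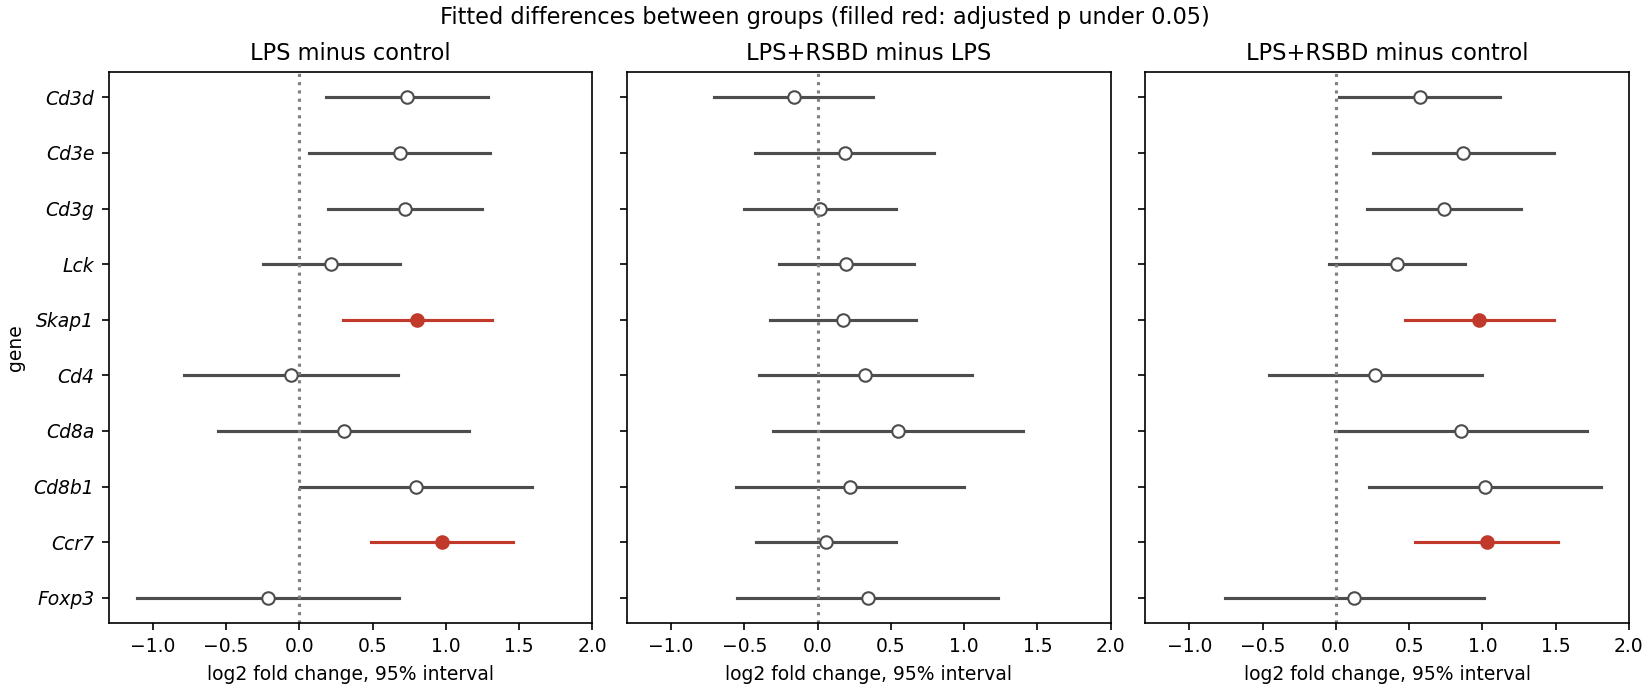
Fitted log2 fold change (horizontal axes) with its 95% interval for the 10 genes (vertical axis) in the 3 comparisons, filled red where the adjusted p was under 0.05. Skap1 and Ccr7 are the called genes against control in both treated groups, and every interval of LPS plus RSBD minus LPS crosses 0.

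Ratios within a library set the subset genes against T cell transcripts of the same library and do not depend on library scaling. They were taken on TPM, which is scaled by length. The scaling of a gene relative to others was not fixed across libraries, so ratio differences on TPM and on CPM can differ. The mean of the 3 CD3 genes stands for T cells, with the reservation that natural killer cells also carry some CD3 transcripts. Cd4 over CD3 was -0.66, -0.31 and -0.67 (log2) in control, -1.69, -1.36 and -1.11 in LPS, and -1.16, -1.03 and -1.01 in LPS plus RSBD libraries. All 6 treated libraries lay below the 3 controls, with mean differences of -0.84 in LPS and -0.52 in LPS plus RSBD. Lck over CD3 was 0.54, 0.45 and 0.50 in control, -0.23, -0.12 and -0.13 in LPS, and 0.003, -0.10 and 0.16 in LPS plus RSBD libraries. It too was below control in all treated libraries, with differences of -0.65 in LPS and -0.47 in LPS plus RSBD, and the LPS plus RSBD libraries lay above all LPS libraries, with a mean difference of 0.18. Taken on CPM instead, an alternative added after seeing the data, the Lck ratio of LPS plus RSBD and LPS libraries overlapped (0.18), and the differences from control were -0.50 and -0.31, with the separation kept. Without RSBD 2 the Cd4 and Lck ratios of the LPS plus RSBD group stayed below all controls (-0.53 and -0.41). In CPM, the CD3 genes had already been seen to separate from control, and Cd4 and Lck not to. The separations of both ratios from control thus follow largely from those levels and are not separate findings.

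Each of these separations had an exact 2-sided permutation p of 0.1, the smallest that 3 against 3 libraries can give, and 0.4 after Benjamini-Hochberg adjustment over the 24 ratio tests made. The ratios of Cd4, Lck, Skap1 and the CD8 genes to CD3 and of Cd8b1 to Cd8a were chosen after the values were seen. CD8 over CD3, with Cd8a and Cd8b1 summed, measured 0.47 ± 0.14 in control, 0.29 ± 0.20 in LPS and 0.52 ± 0.27 in LPS plus RSBD libraries (SD, n = 3), with overlap in each comparison. Without RSBD 2 its difference between LPS plus RSBD and control turned from 0.05 to -0.09, still with overlap. CD8 over Cd4 was 1.29, 0.72 and 1.05 in control, 2.17, 1.69 and 1.19 in LPS, and 1.66, 1.83 and 1.27 in LPS plus RSBD libraries, and LPS 3 and RSBD 3 fell within the control range (exact permutation p = 0.2 for each against control). Cd8b1 over Cd8a was 0.13, 0.26 and -0.38 among controls against 0.47, 0.58 and 0.64 after LPS, a separation with an exact permutation p of 0.1. The LPS plus RSBD libraries gave 0.63, 0.10 and 0.16, which overlapped both other groups.

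Foxp3 over Cd4 and Ccr7 over CD3 did not separate any groups. Foxp3 over Cd4 was -2.88 ± 0.39 in control, -2.96 ± 0.31 in LPS and -3.03 ± 0.43 in LPS plus RSBD libraries (SD, n = 3), with exact permutation p from 0.6 to 0.9 over the 3 comparisons. Ccr7 over CD3 was -0.77 ± 0.50, -0.46 ± 0.22 and -0.37 ± 0.45, with exact permutation p from 0.4 to 0.9. Control 3 had the lowest value of the latter, -1.35, and without it the difference between LPS and control was 0.02. RSBD 2, the library richest in T cell transcripts, had the lowest Ccr7 over CD3 of the treated libraries, -0.86.

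**Figure D3:**
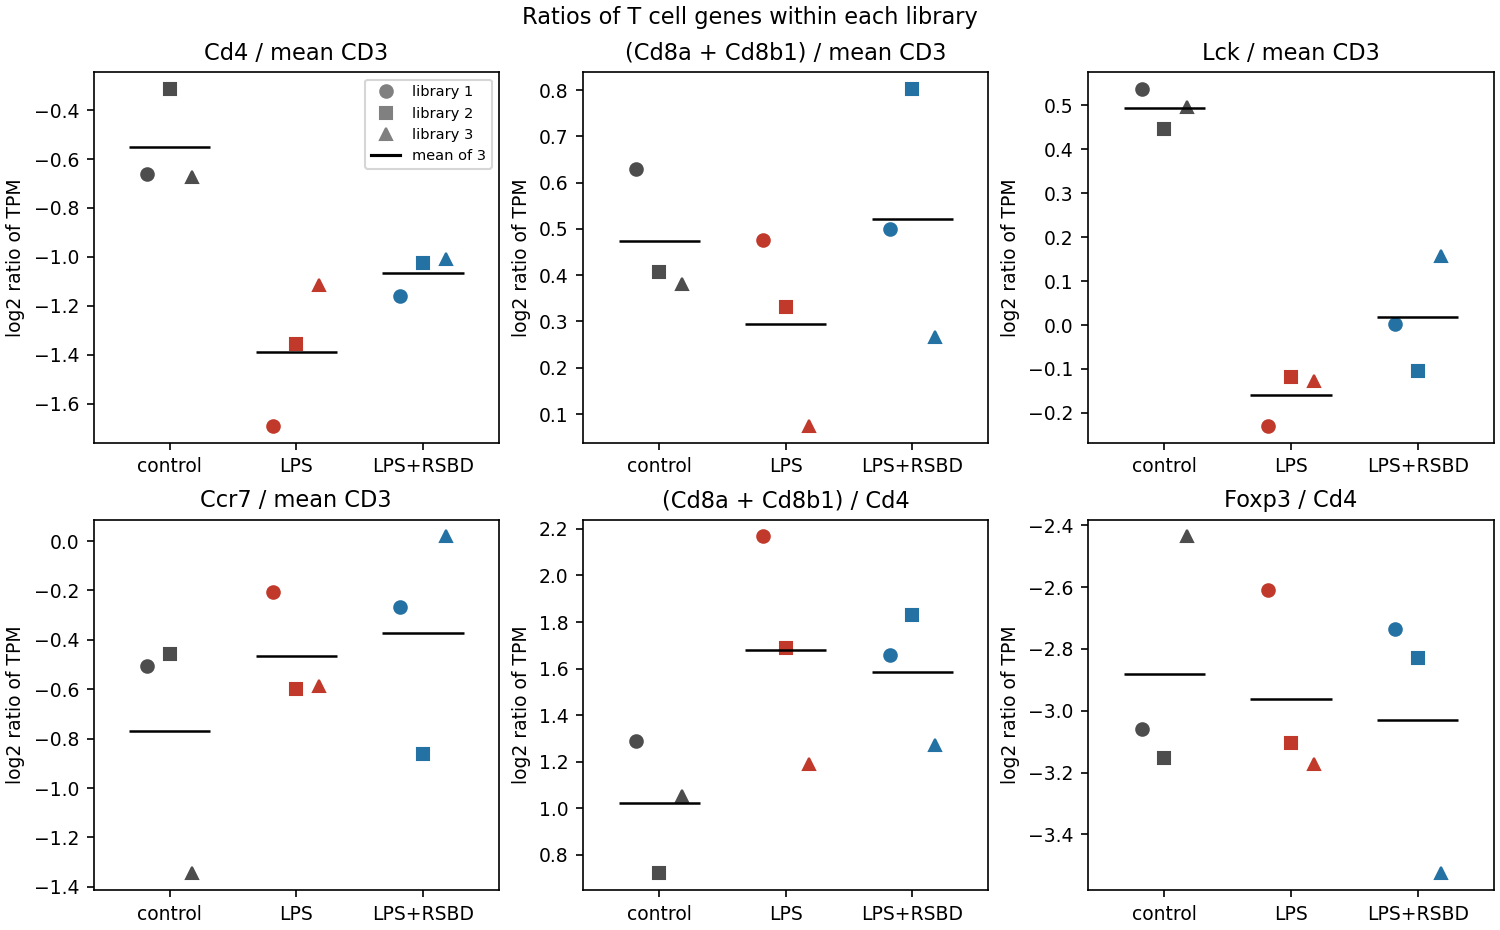
Log2 ratio of TPM (vertical axes, which do not start at 0) between T cell genes of the same library, by group (horizontal axes), with a bar for the mean of 3. Cd4 and Lck over the mean of the CD3 genes are lower in all 6 treated libraries than in the 3 controls, while Foxp3 over Cd4 and Ccr7 over CD3 overlap between all groups. The ratios of Cd4, Lck and the CD8 genes to CD3 were chosen after the values were seen.

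The wider machinery of T cells was read from 7 lists, of which those for homing, regulatory and CD8 effector genes hold members. Of 35 genes of proximal receptor signalling, 7 rose in LPS against control, 0 fell and 28 did not pass (17.4% of all tested genes were called in that comparison, and 8.79% were called higher), with a median log2 fold change of 0.27. They were Lcp2, Txk, Ptpn6, Ubash3b, Fyb, Prkcq and Cd2. Cd2, an adhesion receptor of T and NK cells, rose from 8.35 ± 1.07 to 13.01 ± 2.25 CPM (0.64 ± 0.18, edgeR adjusted p = 0.0411). Lcp2, the adaptor SLP-76, which myeloid cells also carry, rose from 37.2 ± 3.51 to 60.3 ± 8.81 CPM (0.70 ± 0.17, edgeR adjusted p = 0.0241), and Ubash3b, a phosphatase that dampens receptor signals, from 18.9 ± 1.40 to 36.8 ± 12.1 CPM (0.96 ± 0.20, edgeR adjusted p = 0.0138). Lcp2, Ubash3b and Ptpn6 were highest in LPS 1 (68.0, 50.6 and 148 CPM), and Cd2 in RSBD 2 (16.5 CPM). Which cells carried these transcripts was not tested. Cd247, the zeta chain of the receptor, measured 9.44 ± 1.56 and 14.5 ± 0.907 CPM and was not called (edgeR adjusted p = 0.0968), nor was Zap70, the kinase that binds phosphorylated CD3, at 10.7 ± 1.49 and 14.4 ± 2.15 CPM (0.122). Cd5 and Cd28, on most T cells, were at 10.2 ± 1.70 and 10.4 ± 1.51 CPM and at 8.29 ± 1.66 and 8.31 ± 1.46 CPM. Between LPS plus RSBD and control 0 of the 35 were called, where 3.7% of all genes were. Cd2 lost its call without any control or LPS library or RSBD 1 (highest adjusted p = 0.128) and Lcp2 without control 2, control 3, LPS 1 or LPS 2 (highest 0.0956).

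Of 18 T cell lineage transcription factors 1 rose in LPS, Ikzf1, a factor of all lymphocytes and many myeloid cells, from 58.9 ± 6.91 to 89.9 ± 14.5 CPM (0.61 ± 0.14, edgeR adjusted p = 0.0185), and 17 did not pass (median of the list 0.15). Leaving out control 3 or LPS 2 ended that call (highest adjusted p 0.099). Of the 14 naive and central memory homing genes Ccr7 alone was called (median 0.33), where 17.4% of all tested genes were called in LPS against control. Of 14 tested T helper subset genes 0 were called in each of the 3 comparisons by edgeR (median 0.20 in LPS against control).

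Of 19 tested regulatory T cell genes Ebi3 and Nt5e rose in LPS, Lrrc32 fell and 16, Foxp3 among them, did not pass (median 0.31). In that comparison 17.4% of all tested genes were called, 8.79% higher and 8.63% lower. Lrrc32, the GARP protein of activated regulatory T cells that endothelium also makes, fell from 100.7 ± 21.0 to 56.7 ± 6.79 CPM (-0.83 ± 0.16, edgeR adjusted p = 0.0112). Ebi3, a cytokine subunit, measured 2.29 ± 0.233 and 5.99 ± 2.12 CPM (1.382 ± 0.36, edgeR adjusted p = 0.0298) and Nt5e, the ectoenzyme CD73, 94.97 ± 8.32 and 125.9 ± 5.17 CPM (0.41 ± 0.11, edgeR adjusted p = 0.0365). Leaving out LPS 1, LPS 2 or any control library ended both rises, and leaving out LPS 3 that of Nt5e (highest 0.102 and 0.189). Between LPS plus RSBD and control Il2rb and Ccr8 were called higher, and Lrrc32 and Ikzf4 lower (median 0.56), where 3.7% of all genes were called. Without RSBD 2, in an alternative added after seeing the data, 0 of the 19 were called there (median 0.07, and 0.615% of all genes were called), while in LPS against control 4 rose, Il2rb and Itgae beside Ebi3 and Nt5e, and Lrrc32 fell. Ccr8, a chemokine receptor of regulatory and type 2 helper T cells, was at 2.36 CPM in RSBD 2 and at 0.713 and 0.836 CPM in the other libraries of its group. Where 8.79% of all tested genes were called higher and 8.63% lower, 5 of 15 tested activation and checkpoint genes rose in LPS and 0 fell (median 0.31). They were Havcr2, the checkpoint receptor TIM-3, which myeloid cells also carry, from 7.82 ± 1.93 to 22.1 ± 2.72 CPM (1.495 ± 0.19, edgeR adjusted p = 0.00304), the adhesion receptor Cd44, from 218 ± 26.0 to 359 ± 47.4 CPM (0.72 ± 0.14, edgeR adjusted p = 0.00954), Btla, an inhibitory receptor of B and T cells, from 25.6 ± 7.10 to 43.7 ± 6.73 CPM (0.77 ± 0.21, edgeR adjusted p = 0.0365), and Cd96 and Cd226. The call of Btla was lost without control 1, control 3, any LPS library or RSBD 1 (highest 0.104).

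Of 17 CD8 effector and memory genes, 6 rose in LPS and 0 fell, and these 6 were also called higher in LPS plus RSBD against control: Gzma, Gzmb, Prf1, Nkg7, Ccl5 and Klrk1. Neither CD8 chain was among them, and natural killer cells make all 6 as well. Over all tested genes, 8.79% were called higher in LPS and 1.89% in LPS plus RSBD, each against control. The median over the list was 0.94 in LPS and 1.11 in LPS plus RSBD against control. Without RSBD 2 the latter was 0.65 and Gzma, Gzmb and Ccl5 alone were called in it, where 0.615% of all genes were called. In LPS against control Cd8b1 and Itgae then joined the 6, where 15.6% of all genes were called. Against LPS alone, RSBD gave 0 called genes in each of the 7 lists by edgeR. Gzmb, a cytotoxic granule protease, measured 2.88, 2.32 and 2.17 CPM in control, 11.8, 8.03 and 10.2 CPM in LPS, and 8.47, 22.8 and 14.9 CPM in LPS plus RSBD libraries (2.02 ± 0.33 in LPS against control, edgeR adjusted p = 0.00666). Gzma rose from 6.60 ± 1.97 to 20.1 ± 3.04 CPM (1.60 ± 0.29, edgeR adjusted p = 0.0094). These fold changes exceed those of the CD8 chains, although the difference between genes was not tested.

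Markers of other cells that could share or carry the members' transcripts were read in the same libraries. In LPS against control 8.79% of all tested genes were called higher. Of 13 NK cell markers 8 rose in LPS, Gzma, Gzmb and Prf1 of the CD8 effector list among them, and their summed level was 76.4 to 111 CPM in control, 197 to 260 CPM in LPS and 153 to 265 CPM in LPS plus RSBD libraries. Ncr1, an NK receptor, measured 1.97, 1.66 and 0.961 CPM in control, 8.54, 4.64 and 5.49 CPM in LPS and 8.31, 7.78 and 10.4 CPM in LPS plus RSBD libraries (2.02 ± 0.32 in LPS against control, edgeR adjusted p = 0.00553). Tyrobp, an adaptor that myeloid cells also carry, made up much of that sum, at 63.7 ± 13.2 CPM in control and 155 ± 34.7 CPM in LPS. Without it the sums were 26.5 to 35.0 CPM in control, 67.0 to 91.2 CPM in LPS and 86.0, 136 and 122 CPM in RSBD 1 to 3, so that RSBD 2 was the highest of the 9 libraries, with 6 of the 12 genes peaking in it. With Tyrobp, RSBD 2 stood at 208 CPM, between the other libraries of its group. Of 12 B cell markers 0 were called in each comparison, with sums of 243 to 450.5 CPM in control, 336 to 390 CPM in LPS and 408 to 524 CPM in LPS plus RSBD libraries, where RSBD 1 and not RSBD 2 was highest. How far NK cells account for the CD3 difference was not tested.

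For Ccr7, the other migratory dendritic cell markers summed to 474 to 501 CPM in control, 403 to 497 CPM in LPS and 424 to 538 CPM in LPS plus RSBD libraries, and of the 11 only Socs2 was called in LPS, lower. Cd200 and Socs2, which many other cells make, carried most of these sums. Without them the other 9 markers summed to 66.4, 101 and 89.6 CPM in control, 69.6, 119.9 and 109 CPM in LPS, and 101, 174 and 71.6 CPM in LPS plus RSBD libraries, with overlap between groups and RSBD 2 highest. Ccl22, a chemokine of mature dendritic cells, averaged 5.88 ± 2.6 CPM in control and 12.5 ± 7.28 CPM in LPS, and Fscn1, an actin-bundling protein of the same cells, 12.0 ± 3.33 and 20.0 ± 6.13 CPM, neither called (edgeR adjusted p = 0.336 and 0.263). For Cd8a, which cross-presenting dendritic cells can make, the conventional dendritic cell markers summed to 412 to 437 CPM in control and 520 to 576 CPM in LPS libraries, with Cadm1, Wdfy4, Flt3 and Itgax rising and Clec9a and Zbtb46 falling. The LPS plus RSBD range was 464 to 627 CPM, again with RSBD 2 highest. From control to LPS, Cadm1 averaged 148.5 and 215.1 CPM and Itgax 36.7 and 93.0 CPM. Clec9a averaged 83.4 and 53.6 CPM, and Zbtb46 76.2 and 52.8 CPM, so the sum mixes opposite directions. For Cd4, which macrophages and plasmacytoid dendritic cells can make at low level, monocyte and macrophage markers summed to 6839 to 7244 CPM in control and 8050 to 12290 CPM in LPS libraries. Lyz2 (5303 CPM in control, 7015 CPM in LPS) and Chil3 (1123 and 2378 CPM) carried most of these sums. Neither was called (edgeR adjusted p = 0.0957 and 0.0674). Of the 11 markers Csf1r, Cd68, Ccr2, Ly6c2 and Adgre1 rose and Cd14 fell. Among 9 plasmacytoid markers 3 rose and 6 did not pass, with a median log2 fold change of -0.025, where 8.79% of all tested genes were called higher. Thymocyte markers other than Cd8a summed to 102 to 115 CPM in control, 107 to 117 CPM in LPS and 108 to 124 CPM in LPS plus RSBD libraries, carried by genes that other cells also make, such as Tmem131l and Mns1, and Cd1d1 rose in LPS from 15.6 ± 1.44 to 22.8 ± 3.01 CPM (edgeR adjusted p = 0.0449). The defining genes of thymocytes were scarce: over the 9 libraries Rag1 had 12 reads, Rag2 4, Ptcra 2 and Dntt 64, of which 19 were in RSBD 2. Lymphoid stroma and follicle markers summed to 73.7 to 102 CPM in control, 82.0 to 107 CPM in LPS and 79.9 to 111 CPM in LPS plus RSBD libraries, with 0 of 6 tested genes called. Among them Ccl21a, the ligand of CCR7, averaged 31.6 ± 12.5 CPM in control and 50.4 ± 13.8 CPM in LPS (edgeR adjusted p = 0.155), and Cxcl13, the chemokine of B cell follicles, was highest in RSBD 2 at 46.8 CPM. Madcam1 and Glycam1, of lymph node vessels, had 2 and 15 reads. The part of these cells in the members' differences was not tested.

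**Figure D4:**
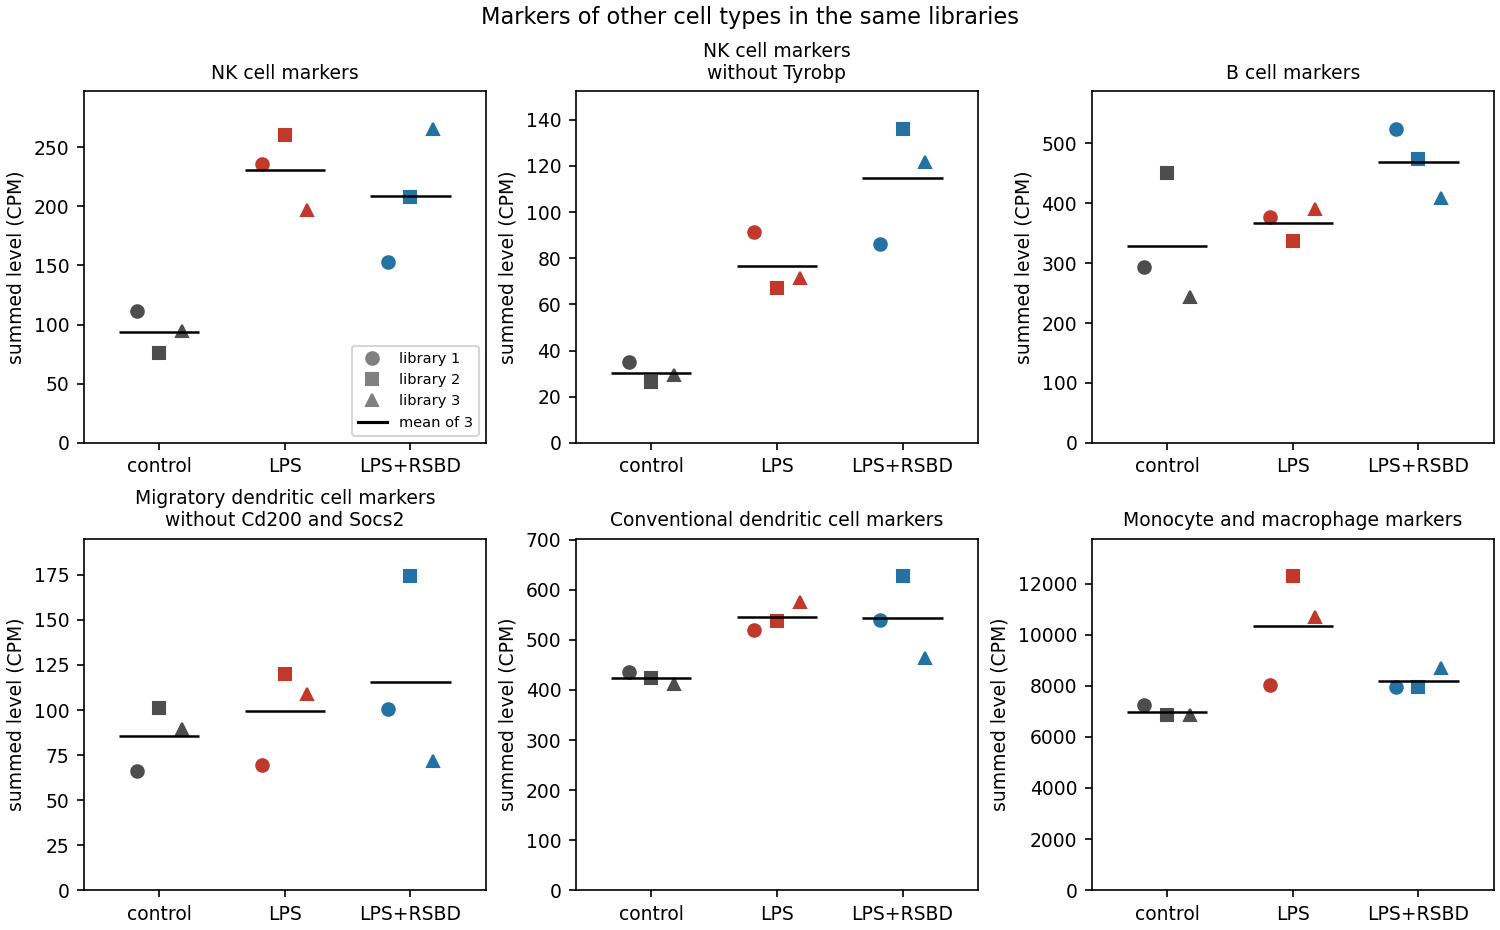
Summed level in CPM (vertical axes, starting at 0) of marker genes of 5 other cell types, members left out, in the 9 libraries by group (horizontal axes), with a bar for the mean of 3 and NK cells shown with and without Tyrobp. NK sums are 197 to 260 CPM in LPS against 76.4 to 111 CPM in control libraries, and RSBD 2 is the highest library for NK markers without Tyrobp and for both dendritic cell panels, but not for B cell or monocyte and macrophage markers. Lyz2 and Chil3 carry most of the monocyte and macrophage sums.

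RSBD 2 held 1.80 to 2.97 times the mean of RSBD 1 and RSBD 3 for the CD3, CD4, CD8 and Foxp3 genes, 1.72 times for Lck, 1.62 times for Skap1 and 1.19 times for Ccr7. Cd3e reached 48.6 CPM there against 28.1 CPM in the next highest library, and Foxp3 6.45 against 4.13 CPM. Among the wider lists, 20 of 35 receptor signalling genes, 14 of 15 CD8 effector genes without the CD8 chains and 11 of 18 regulatory genes without Foxp3 peaked in RSBD 2, against 4 of 13 homing genes without Ccr7 and 3 of 12 B cell markers. The background was 10.7% of all tested genes. Cd5, a T cell surface receptor, was at 22.8 CPM in RSBD 2 and at 12.97 and 10.5 CPM in the other libraries of that group.

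The genes whose level most resembled the mean of the 3 CD3 genes over the 9 libraries, by Pearson correlation of log2 CPM among the 14385 tested genes whose mean reached 1 CPM, were Sec11c (0.96), Depdc1a (0.96), Tafa3 (0.96), Haspin (0.96), Mcm6 (0.96) and Dusp2 (0.95). Depdc1a, Haspin and Mcm6 act in dividing cells, and Dusp2 is a phosphatase made by activated lymphocytes. Depdc1a was at 0.317, 0.509 and 0.534 CPM among controls, at 1.23, 1.89 and 1.78 CPM after LPS and at 0.987, 2.61 and 0.727 CPM in LPS plus RSBD libraries. Closest to Foxp3 were Rbpj (0.93), Tox (0.93), Fam83d (0.93), Ntmt1 (0.89), Apol6 (0.88) and C1rb (0.88), all of them highest in RSBD 2. Closest to Ccr7 were 2310033P09Rik (0.98), Nt5dc1 (0.97), Btla (0.96), Cnrip1 (0.96), Lrrc4c (0.96) and Ptprm (0.96). These are descriptions over 9 libraries that share groups and, for the first and second sets, 1 library of very high level, and the sets were ranked from many genes.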

How the data were processed

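Lungs of 9 mice gave the libraries, 3 per group. Per the labels' protocols, enriched mRNA went into directional libraries read as pairs of 150 bases. The submitters' processing notes list mm10 (GRCm38), fastp 0.23.2, DESeq2 1.38.3, HISAT2 2.2.1 and StringTie 2.2.0, without roles. Estimated counts per protein-coding gene are given as deposited by the authors, and each estimated count is whole, so no rounding was needed. TPM values deposited by the authors for these genes served ratios and alternatives. Column names give group and number, and those of the LPS plus RSBD group were assigned by elimination.

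Counts were fitted in R 4.3.3 with edgeR 4.0.16: filterByExpr (minimum count 10, minimum total 15) left 15636 of 21930 genes, scaling was by TMM, and 1 robust quasi-likelihood model of all 9 libraries with group as the factor gave 3 comparisons, 2-sided, with Benjamini-Hochberg adjustment over all tested genes. In LPS against control, log2 fold changes over all genes had a median SE of 0.15, and the script was tested on simulated data. Intervals are 95% from the same fit. Exact permutation tests (2-sided, smallest possible p 0.1) compared ratios. Replicates of a group differed by more than sampling noise.

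The members and lists were chosen with earlier results of these data known. Named genes are the members, up to 4 genes of smallest p per T cell list in LPS against control and in LPS plus RSBD against LPS, up to 3 most abundant and any called markers of other cells, and the 6 genes most like the CD3 mean, Foxp3 and Ccr7. Txk, Fyb, Prkcq, Cd247, Zap70, Cd28, Nkg7, Klrk1, Cd96, Il2rb, Itgae, Ccl22, Fscn1 and the scarce markers with raw reads were named after their values were seen. Promoters came from RefSeq (GRCm38.p6). Alternatives were DESeq2 1.42.0, other scalings, no filter, limma 3.58.1 on log2 TPM with pseudocounts 1 and 0.1, the compared groups alone, a replicate block, and each library left out. Marker sums without abundant genes, and lists and ratios without RSBD 2, were added after seeing the data. A result for 1 gene of the homing list is not reported here.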

Additional observations from a re-analysis of the deposited data

How the results depend on the processing

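Shares of all genes called in the same setting are given in brackets. Of 10 members, the count called in LPS against control was 2 in the reported fit (17.4%), 5 with DESeq2 (23.1%) and 6 with the compared groups alone (15.8%). It was 1 with limma on log2(TPM + 1) under either filter (14.3% and 8.32%). With a library left out it was 0 to 6, with 0 without LPS 2 (4.98%) and 6 without RSBD 2 (15.6%). In LPS plus RSBD against control it was 2 (3.7%), then 5 with DESeq2 (10.5%) and 0 with the compared groups alone (2.64%). It was 0 with limma under all 3 settings (0.744% to 2.15%). With a library left out it was 0 to 4, with 4 without RSBD 3 (3.56%). In LPS plus RSBD against LPS it was 0 in all 18 alternatives (0% to 1.01%). The cause was not tested.

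The numbers do not pair the libraries (same-numbered deviations correlated from -0.215 to 0.122). With the replicate number as a block 2, 0 and 2 members were called in the 3 comparisons, while Cd2, Lcp2 and Ebi3 lost their calls in LPS against control and the count over all genes there fell from 2723 to 1828, and from 578 to 240 in LPS plus RSBD against control.

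Over all genes, DESeq2 called 1674 in that last comparison and limma on log2(TPM + 1) called 308 (137 with genes of any TPM above 0). In LPS against control limma split its calls into 711 higher and 1338 lower, against 1374 and 1349.

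With no test passed, signs turned for Lck in LPS against control with limma on TPM (-0.01 and, at pseudocount 0.1, -0.011), for Cd3g in LPS plus RSBD against LPS with limma (-0.059 and -0.062) and the block (-0.019), and for Foxp3 in LPS plus RSBD against control with limma at pseudocount 0.1 (-0.044). With a library left out, fold changes in LPS against control ran from -0.25 to 0.17 for Cd4. In LPS plus RSBD against LPS they ran from -0.564 to 0.023 for Cd3d, -0.30 to 0.39 for Cd3e, -0.32 to 0.21 for Cd3g, -0.11 to 0.51 for Cd4, -0.18 to 0.84 for Cd8a, -0.31 to 0.52 for Cd8b1, -0.10 to 0.34 for Skap1, -0.033 to 0.102 for Ccr7, -0.11 to 0.35 for Lck and -0.29 to 0.66 for Foxp3. Against control they ran from -0.17 to 0.46 for Cd4 and -0.51 to 0.45 for Foxp3.

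Ratio differences with a library left out, in the order LPS against control, LPS plus RSBD against LPS, and LPS plus RSBD against control, ran for CD8 over Cd4 from 0.42 to 0.91, -0.34 to 0.15 and 0.41 to 0.72, for Foxp3 over Cd4 from -0.26 to 0.14, -0.21 to 0.18 and -0.29 to 0.10, and for Ccr7 over CD3 from 0.02 to 0.46, -0.10 to 0.34 and 0.11 to 0.64. CPM in place of TPM, and 0.1 TPM added, turned 0 of the 9 signs. Limma on log2(TPM + 1) also ended the LPS calls of Lcp2, Cd2, Ubash3b, Ikzf1, Nt5e and Btla. Of 540 values of single members under alternatives, 466 kept sign and side of the threshold, 31 lost a call, 19 gained one and 24 changed sign. Foxp3 rests on 50 to 200 reads per library.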
